A study of Mus musculus with 6 samples.

Results

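Urate oxidase (Uox), xanthine dehydrogenase (Xdh), adenosine deaminase (Ada), guanine deaminase (Gda), the salvage enzymes Hprt and Aprt, and 5-hydroxyisourate hydrolase (Urah) were followed in cultured mouse hepatocytes exposed to tumour necrosis factor alpha (TNFα). Every probe that the platform annotation assigns to these 7 genes was taken, which gave 12 of the 45281 probes in the deposited table and 7 of the 19057 genes named there. Primary hepatocytes, freshly isolated parenchymal liver cells, came from male C57Bl/6J mice and were profiled on 6 Illumina mouse BeadChip arrays. The 3 groups of 2 arrays were untreated cells, cells given 2 ng/mL recombinant murine TNFα for 2 hours, and cells given that dose for 2 days. All groups, untreated cells included, were grown on collagen in Williams' E medium with 5% fetal calf serum, 50 nM dexamethasone, a synthetic glucocorticoid, and 1 nM insulin. The age of the mice, pooling of animals, and the time that untreated cells spent in culture are not given in the sources used here, so 2 days of exposure and time in culture cannot be told apart.

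Purine breakdown converges on xanthine. Ada turns adenosine into inosine, Gda turns guanine into xanthine, and Xdh oxidises hypoxanthine to xanthine and xanthine to urate. In mice, urate is oxidised further in liver peroxisomes by Uox, whose product is hydrolysed by Urah and decarboxylated by Urad to allantoin, whereas the human urate oxidase gene is inactive. Hprt and Aprt work in the opposite direction and return hypoxanthine, guanine and adenine to nucleotides.

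Intensities are the deposited values on a linear scale. They stand on a floor, of background or of an added constant, so that folds of dim probes are understated. Changes are log2 differences with the standard error (SE) of a limma fit across 26272 probes, and a probe counts as called where its p, adjusted by Benjamini-Hochberg over all of them, was under 0.05. Testing required an intensity above the array's own median, which lay between 143.16 and 143.22, on 2 or more arrays. Of the 12 probes 9 were tested, and every gene kept at least 1. Over the tested probes, the correlation within a group was 0.9947 to 0.9951 and that between groups 0.983 to 0.9917. Whether a group's 2 arrays hold RNA of separate animals or cultures is not labelled, and the spread behind the p-values may therefore be only technical.

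After 2 days of TNFα the urate-degrading end of the pathway was lower and Xdh, the step that makes urate, was higher. Uox was 4.15-fold lower at 2 days than in untreated cells, Urah was 1.34-fold lower, and all 3 Hprt probes were lower, while Xdh was 1.62-fold higher. The calls of Urah and of the dimmest Hprt probe depended on single arrays. Of the 9 tested probes, 5 were called lower and 1 higher, against 4.67% of all tested probes called lower and 4.96% called higher (9.63% either way). The 5 lower probes include the 3 of Hprt. By gene, each by its probe of highest mean, 3 of 7 were called lower and 1 higher. Over all 13438 genes, 5.68% were called lower and 6.46% higher. After 2 hours 0 of the 9 probes were called by limma and 0 had an unadjusted p under 0.05, against 1.24% of all tested probes called higher and 0.651% lower (1.89% either way). The 2 hour and untreated arrays overlapped for all 9 probes, whereas they did not for 38.4% of all tested probes. Between the exposures, 2 days minus 2 hours, the same 6 probes were called, 5 lower and 1 higher, against 5.49% of all tested probes called lower and 6.09% higher (11.6% either way). By gene, 3 of 7 were again called lower and 1 higher, against 6.39% and 8.30% of all genes. In that comparison the arrays did not overlap for 7 of the 9 probes, the 3 Hprt probes among them, against 49.5% of all tested probes. The comparison between exposures and the one against untreated cells share the 2 day arrays.

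**Figure D1:**
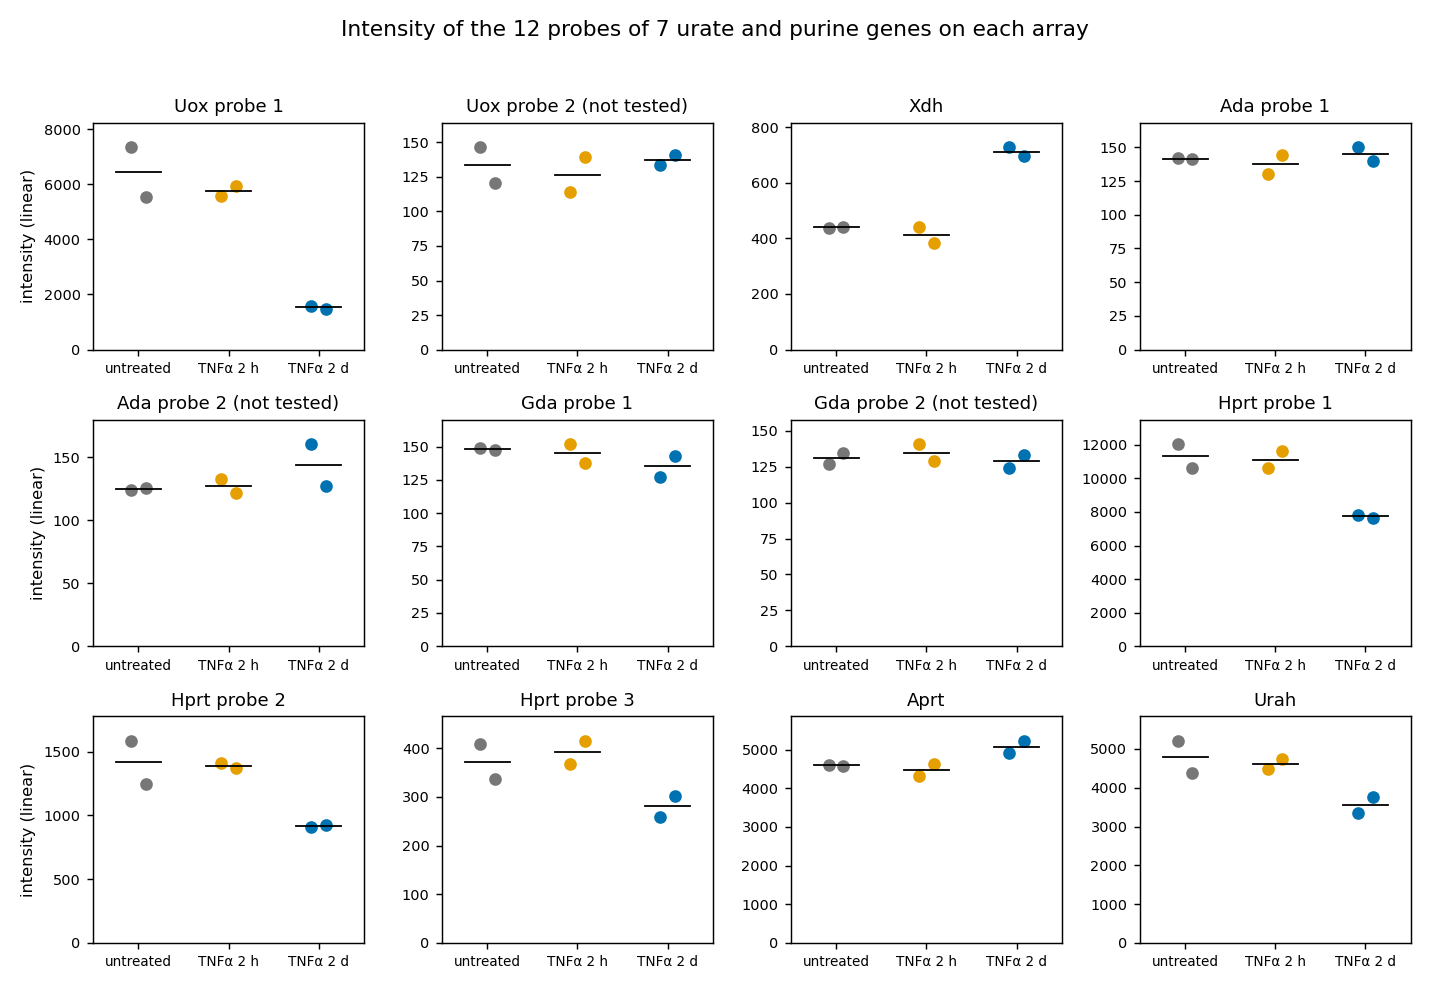
Intensity of each of the 12 probes (linear axis from 0, 1 panel per probe) on the 2 arrays of each group, with points for arrays and a bar for the group mean. The 2 day arrays of Uox probe 1, the 3 Hprt probes and Urah lie below all 4 other arrays, those of Xdh lie above them, and the Ada, Gda and second Uox panels stay between 113.8 and 160.4.

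Uox, the peroxisomal enzyme that removes urate, had intensities of 7342 and 5549 in untreated cells, 5585.5 and 5923 at 2 hours, and 1591 and 1484 at 2 days on its bright probe, ILMN_2519536. Both 2 day arrays were far below the other 4, and the untreated and 2 hour arrays overlapped. Uox averaged 1538 ± 75.2 at 2 days, against 6445 ± 1268 in untreated cells (SD, n = 2 each), a log2 difference of -2.05 (SE 0.11, adjusted p = 8.5e-12 by limma). At 2 hours the Uox difference from untreated cells was -0.15, with a 95% interval of -0.39 to 0.09 (adjusted p = 0.757 by limma). The difference between 2 days and 2 hours was -1.90 (adjusted p = 3.06e-11 by limma), or 3.74-fold lower at 2 days. The fall of Uox at 2 days kept its call under all 21 alternative settings, between -2.26 and -1.85. The other Uox probe, ILMN_2822643, annotated to the same transcript, lay between 113.8 and 146.4 on the 6 arrays and exceeded the array median on 1 of them, so it was not tested.

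Urah, which acts directly after Uox, had intensities of 5212 and 4368 in untreated cells, 4487 and 4745 at 2 hours, and 3346 and 3773 at 2 days. Its 2 day arrays were the lowest, but the gap to the nearest untreated array was smaller than the distance between the untreated arrays. The log2 difference of Urah at 2 days was -0.43 (SE 0.11, adjusted p = 0.00995 by limma) against untreated cells and -0.38 (adjusted p = 0.020 by limma) against 2 hours. Without untreated replicate 1 the Urah difference from untreated cells was -0.30 (adjusted p = 0.207 by limma), and without replicate 1 of the 2 day group it was -0.34 (adjusted p = 0.141), so that call rests on these arrays. Against 2 hours the Urah call was lost without replicate 1 (-0.42) or 2 (-0.34) of the 2 hour group and without replicate 1 of the 2 day group (-0.29).

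Urad, which completes the conversion to allantoin, is not among the 7 genes but belongs to the same route. It had intensities of 817 and 708 in untreated cells, 742 and 694.4 at 2 hours, and 309.8 and 316.6 at 2 days. The 2 day arrays were well below the others, with a log2 difference from untreated cells of -1.28 (SE 0.10, adjusted p = 3.12e-09 by limma). A second Urad probe gave -1.21 (adjusted p = 1.73e-08 by limma). Uox, Urah and Urad, the 3 enzymes from urate to allantoin, were thus all called lower at 2 days. Of these, only Uox and Urad kept the call under all 21 alternatives. Allc, annotated as allantoicase, differed by 0.13 (95% interval -0.09 to 0.35) and was not called. Its mean was 153.6 in untreated cells and 167.4 at 2 days, near the array median, where a change could be hidden.

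Xdh, the molybdenum enzyme that produces urate, had intensities of 436.4 and 441.3 in untreated cells, 438.8 and 384 at 2 hours, and 726.8 and 696.3 at 2 days. Both 2 day arrays stood above the other 4, which lay close together. Xdh averaged 711.5 ± 21.5 at 2 days, against 438.9 ± 3.45 in untreated cells (SD, n = 2 each), a log2 difference of 0.70 (SE 0.10, adjusted p = 2.65e-05 by limma). The difference between 2 days and 2 hours was 0.79 (adjusted p = 4.22e-06 by limma), a 1.73-fold rise. At 2 hours Xdh differed from untreated cells by -0.10, with an interval of -0.30 to 0.11. The rise at 2 days kept its call under all 21 alternatives, between 0.67 and 0.84. Xdh has a single probe here, so no other probe bears on it.

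**Figure D2:**
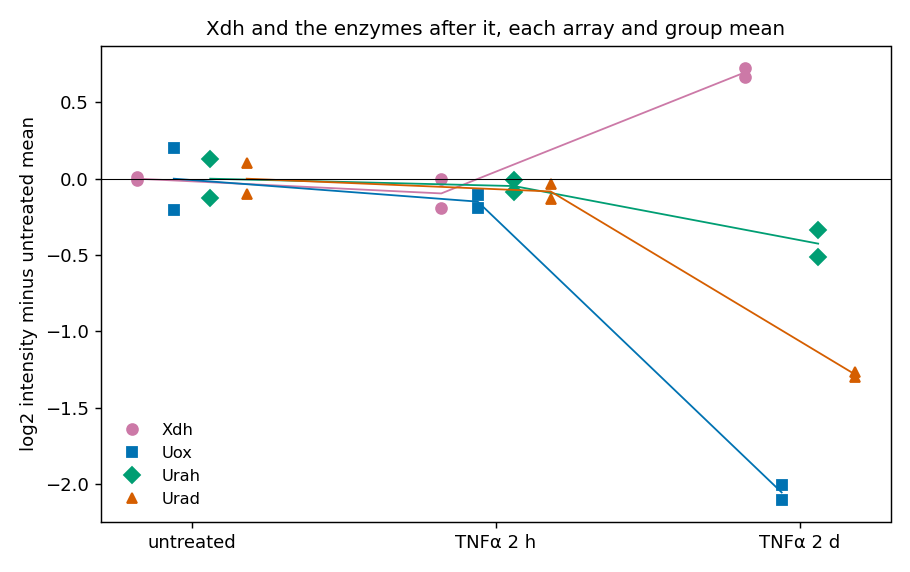
Log2 intensity minus the untreated mean (vertical axis) for Xdh, Uox, Urah and Urad on each array, with lines through the group means of untreated, 2 hour and 2 day cells. At 2 days Xdh lies at 0.67 and 0.73, Urah at -0.51 and -0.34, Urad at -1.30 and -1.26, and Uox at -2.00 and -2.10.

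Hprt, which salvages hypoxanthine and guanine, was lower at 2 days on each of its 3 probes. On the brightest, ILMN_2704499, intensities were 12046 and 10648.5 in untreated cells, 10602.5 and 11615 at 2 hours, and 7836 and 7645 at 2 days. On ILMN_2776552 they were 1586 and 1247 in untreated cells, 1409 and 1373 at 2 hours, and 909.1 and 926.1 at 2 days. On ILMN_2767487 they were 409.4 and 336 in untreated cells, 368.7 and 415.7 at 2 hours, and 259.8 and 301 at 2 days. On every Hprt probe the 2 day arrays lay below the other 4, and the untreated and 2 hour arrays overlapped. The log2 differences of Hprt at 2 days from untreated cells were -0.55 (SE 0.10, adjusted p = 0.000522 by limma), -0.62 (adjusted p = 0.000338) and -0.41 (adjusted p = 0.020) in the same order of probes. The probes share 1 transcript accession and are not independent measurements. The dimmest Hprt probe lost its call against untreated cells without untreated replicate 1 (-0.26) and without replicate 1 of the 2 day group (-0.30). Against 2 hours the 3 probes were lower by log2 differences of -0.52, -0.60 and -0.49, and the dimmest lost that call without replicate 2 of the 2 hour group (-0.40) and without replicate 1 of the 2 day group (-0.38).

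Aprt, which salvages adenine, did not pass the test in any comparison. Its intensities were 4600 and 4585 in untreated cells, 4310 and 4627 at 2 hours, and 4919 and 5232 at 2 days. The 2 day arrays were the highest, by a margin that limma did not call. The log2 difference of Aprt at 2 days was 0.14, with a 95% interval of -0.06 to 0.34 (adjusted p = 0.484 by limma), and against 2 hours it was 0.18 (interval -0.02 to 0.39). These intervals leave out a fall of the size seen for Hprt, but the difference between the Aprt and Hprt changes was not tested.

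Ada, which deaminates adenosine, and Gda, which deaminates guanine, gave signals near the array median throughout. The tested Ada probe lay between 130.5 and 149.9 and its other probe between 121.7 and 160.4. The tested Gda probe lay between 127.2 and 151.9 and its other probe between 124 and 140.9. At 2 days the Ada difference from untreated cells was 0.03 (interval -0.17 to 0.24) and that of Gda was -0.13 (interval -0.34 to 0.07), and neither was called. At these signals a change could be hidden by the background. The arrays of the 2 day and untreated groups did not overlap for 8 of the 9 tested probes, against 47.0% of all tested probes. Gda, Aprt and the 3 Hprt probes were among the 8. Over the 9 tested probes the median log2 difference was -0.41 at 2 days and -0.04 at 2 hours, beside -0.0011 and -0.0079 over all tested probes. Since 3 of the 9 are Hprt probes, the medians over the 7 genes, each by its brightest probe, were -0.13 at 2 days and -0.05 at 2 hours.

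**Figure D3:**
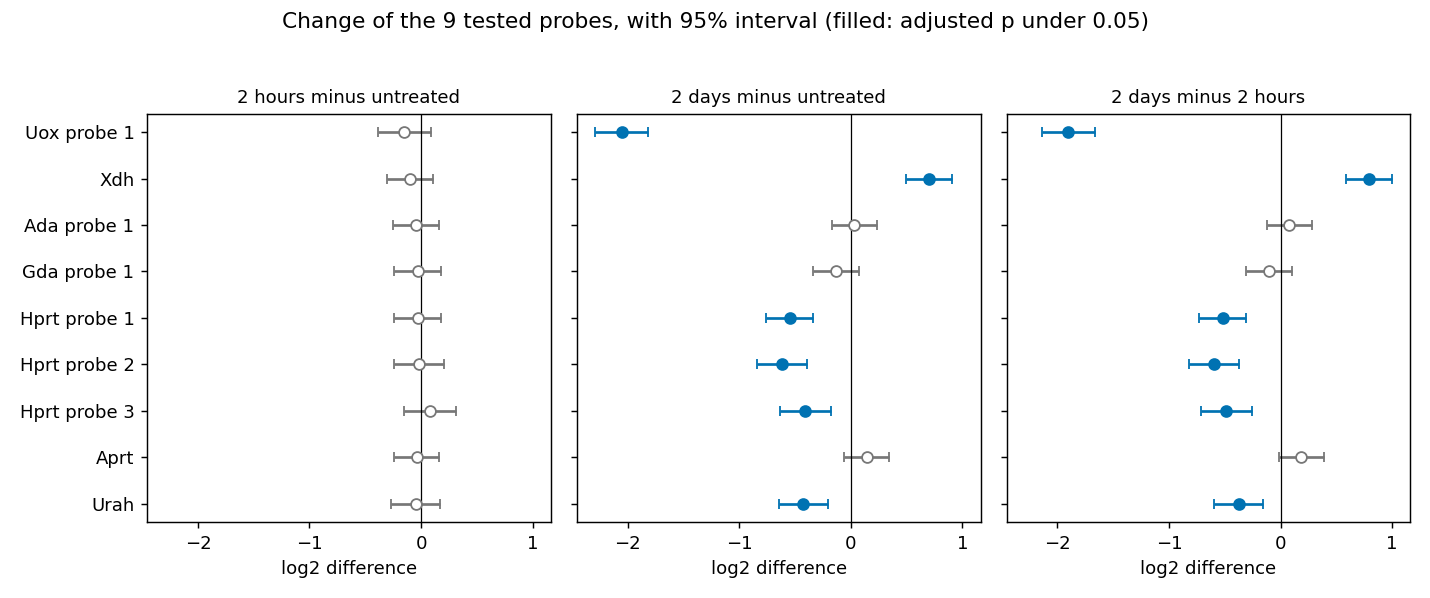
Log2 difference (horizontal axis) of the 9 tested probes in 3 comparisons, with bars for the 95% interval of the limma fit and filled points for adjusted p under 0.05. All 9 intervals at 2 hours include 0, whereas at 2 days Uox probe 1, the 3 Hprt probes and Urah lie below 0 and Xdh lies above it.

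The upstream sequences of the 3 genes called lower are shown because they moved in the same direction at 2 days. They are the 250 bases before a RefSeq start site on build GRCm38.p6, in which CpG dinucleotides are in capitals. A start-site window was found for 6 of the 7 genes, all but Xdh, so the gene called higher cannot be set beside them. The Uox window is chr3:146596899-146597148 on the plus strand, the Hprt window is chrX:52987828-52988077 on the plus strand, and the Urah window, upstream of the first of its 2 listed starts, is chr7:140834888-140835137 on the plus strand.
Uox: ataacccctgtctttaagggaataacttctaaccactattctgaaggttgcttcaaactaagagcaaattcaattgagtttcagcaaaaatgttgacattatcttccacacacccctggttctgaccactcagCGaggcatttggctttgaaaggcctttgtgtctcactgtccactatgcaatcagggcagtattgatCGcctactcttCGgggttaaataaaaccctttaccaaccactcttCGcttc
Urah: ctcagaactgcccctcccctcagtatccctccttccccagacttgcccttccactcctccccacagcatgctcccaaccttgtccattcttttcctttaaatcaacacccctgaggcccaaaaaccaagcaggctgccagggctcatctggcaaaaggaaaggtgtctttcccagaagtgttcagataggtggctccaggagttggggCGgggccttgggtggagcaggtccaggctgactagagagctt
Hprt: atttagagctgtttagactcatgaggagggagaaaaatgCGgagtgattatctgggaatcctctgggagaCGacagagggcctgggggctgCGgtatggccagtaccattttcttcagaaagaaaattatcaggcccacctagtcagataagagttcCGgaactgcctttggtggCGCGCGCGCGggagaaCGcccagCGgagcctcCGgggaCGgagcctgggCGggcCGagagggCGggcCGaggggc
The Uox window had 4 CpG dinucleotides and 42.8% G and C, the Urah window 1 and 56.4%, and the Hprt window 17 and 59.6%. The median over 32817 windows was 6 CpG dinucleotides, so the printed Uox and Urah windows lay below it and the Hprt window above it. The window of the second Urah start overlaps the first and had 7, above that median, with 60.4% G and C. The NF-κB consensus, the nuclear receptor half-site AGGTCA and the letters TATAAA, searched on both strands, had 0 matches in each of these 3 windows. They occurred in 7.25%, 14.0% and 12.4% of all windows of that length. The windows of Gda and Aprt, which were not called, also had 0 matches, and that of Ada had 1 NF-κB match. No match says only that these letters are not in this window.

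Outside the 7 genes, calls at 2 days went in both directions. In 8 lists, which cover purine synthesis, salvage, transport and receptors, the enzymes after Uox, molybdenum enzymes, peroxisomal genes and common reference genes, 77 genes were tested. Of these, 7 were higher and 9 lower, against 6.46% and 5.68% of 13438 genes (12.1% either way), each represented by its probe of highest mean, and the median log2 difference was -0.02, beside 0.0056 over all those genes. At 2 hours 3 were higher and 0 lower, against 1.65% and 0.945% of all genes (2.60% either way). Between 2 days and 2 hours 7 were higher and 9 lower, against 8.30% and 6.39% (14.7% either way). Of the 3 calls at 2 hours, 0 were left when untreated replicate 2 was dropped, 0 when the first 2 hour array was dropped and 1 when the second was. Without replicate 2 of the 2 day group 9 of the 77 were called at 2 days, and without replicate 2 of either exposed group 10 were called between the exposures.

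Of 12 tested genes that build purines from small precursors, 3 were higher and 1 was lower at 2 days, against 6.46% and 5.68% of all genes. Gart (0.33), Adsl (0.42) and Adssl1 (0.51), which catalyse steps of inosine and adenosine monophosphate synthesis, were higher, and Prps1 (-0.41), which makes the ribose phosphate donor, was lower. Without untreated replicate 1 the calls of Gart, Adsl and Prps1 were lost, and likewise without replicate 2 of the 2 day group. Without replicate 1 of the 2 day group those of Gart and Adssl1 were lost. Another Gart probe gave 0.42 and was called, whereas 2 other Adssl1 probes gave 0.08 and 0.12 and were not called. Ppat, the enzyme of the committed step, differed by 0.04 (interval -0.21 to 0.29). Gart (0.41) and Adssl1 (0.37) were also called higher at 2 days than at 2 hours. That call of Gart was lost without replicate 2 of the 2 day group (0.38), while its other probe was called with all arrays (0.34). That of Adssl1 was lost without either 2 hour array and without replicate 1 of the 2 day group (0.23), and its other probes differed by 0.09 and -0.0044 without a call. The list's median at 2 days was 0.01.

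Of 19 tested salvage and breakdown enzymes, 2 were higher and 3 lower at 2 days, against 6.46% and 5.68% of all genes. Adk, adenosine kinase, was at 8641 and 9415 at 2 days, against 17615 and 13515 in untreated cells, a log2 difference of -0.77 (SE 0.11, adjusted p = 4.27e-05 by limma), and 2 other Adk probes gave -0.46 and -0.62. Ampd3, an adenosine monophosphate deaminase, was at 2759 and 2303 at 2 days, against 1808 and 1375 in untreated cells (0.68, adjusted p = 0.000347 by limma). The nucleotidases Nt5e (-0.44) and Nt5c2 (-0.49) were lower and the ectonucleotidase Entpd2 (0.39) was higher. Without replicate 2 of the 2 day group the calls of Nt5e (-0.38) and Nt5c2 (-0.39) were lost. Without untreated replicate 2 those of Nt5e (-0.28) and Entpd2 (0.37) were lost, and that of Entpd2 also without replicate 1 of the 2 day group (0.33). Another Nt5e probe gave -0.36 and was called, whereas other Nt5c2 probes gave -0.09 and -0.02 and were not called. At 2 hours Ampd3 (0.50, adjusted p = 0.0253 by limma) and Samhd1, a deoxynucleotide hydrolase (0.42, adjusted p = 0.0296 by limma), were higher, while another Samhd1 probe gave 0.29 without a call. Both calls were lost without untreated replicate 2, where Ampd3 differed by 0.30 and Samhd1 by 0.36, and without replicate 1 of the 2 hour group. That of Ampd3 was also lost without replicate 2 of the 2 hour group, and that of Samhd1 without untreated replicate 1. Samhd1 was lower at 2 days than at 2 hours (-0.45) and Dguok, deoxyguanosine kinase, higher (0.38), but the other Samhd1 (-0.28) and Dguok (-0.04) probes were not called. The call of Samhd1 was lost without replicate 1 of the 2 hour group (-0.34), and that of Dguok without replicate 2 of the 2 hour group (0.36) or replicate 1 of the 2 day group (0.34). Adk (-0.74) and Nt5c2 (-0.51) were also lower at 2 days than at 2 hours. In that comparison the call of Nt5c2 was lost without replicate 2 of the 2 hour group (-0.36) and without replicate 2 of the 2 day group (-0.40), and its other probes differed by -0.19 and 0.05 without a call.

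The molybdenum list, which holds cofactor genes and hydroxylases related to Xdh, had 0 of 9 called at 2 days by limma, against 12.1% of all genes. In this list 2 had an unadjusted p under 0.05 by limma. Mocs1, which acts early in cofactor synthesis, was at 1793 and 1937 at 2 hours, against 1483.96 and 1261 in untreated cells (0.45, adjusted p = 0.0207 by limma). At 2 days Mocs1 was back within the untreated range, at 1262 and 1367, and 0.50 lower on the log2 scale than at 2 hours. The rise of Mocs1 at 2 hours lost its call without untreated replicate 2 and without either 2 hour array. The aldehyde oxidases Aox1 (-0.06) and Aox3 (-0.08) were not called at 2 days, where Xdh was. Aox1 averaged 157.9 in untreated cells and 151.9 at 2 days, near the array median, where a change could be hidden. Aox3 averaged 412.4 in untreated cells and 390.5 at 2 days.

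Of 11 tested urate and nucleoside transport genes 1 was lower and 0 higher at 2 days, against 5.68% and 6.46% of all genes. Pdzk1, a scaffold protein that binds transporters at the membrane, was at 293.8 and 336.2 at 2 days, against 830.8 and 755.3 in untreated cells (-1.33, adjusted p = 3.12e-09 by limma), and its 2 other probes gave -0.50 and -1.30. The urate transporter Slc2a9 differed by 0.09 (interval -0.14 to 0.31) on a dim probe, with means of 189.1 in untreated cells and 199.9 at 2 days. Slc29a3, a nucleoside transporter, was higher at 2 days than at 2 hours (0.39), a call lost without replicate 1 of the 2 hour group (0.27) and without replicate 2 of the 2 day group (0.36). Of the adenosine receptors only Adora3 was tested, and it differed by -0.02 at 2 days. Its means, 138.1 in untreated cells and 136.4 at 2 days, were near the array median.

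Uox shares the peroxisome with other oxidases, of which 2 among 11 tested peroxisomal genes were lower at 2 days, against 5.68% of all genes. Acox2, the branched-chain acyl-CoA oxidase, was at 2645 and 2723 at 2 days, against 4549 and 4314 in untreated cells (-0.72, adjusted p = 1.39e-05 by limma). Hao1, which oxidises glycolate, differed by -0.86 (adjusted p = 0.000389 by limma), and its other probe by -0.36 without a call. The untreated arrays of Hao1 lay at 717.3 and 447.5, and without untreated replicate 1 the difference was -0.52. With the mean of its probes Hao1 was not called (-0.61, adjusted p = 0.072 by limma). Both genes were also lower at 2 days than at 2 hours, Acox2 by a log2 difference of -0.54 and Hao1 by -0.85. Catalase (Cat), which breaks down the hydrogen peroxide that Uox releases, differed by -0.15 (interval -0.39 to 0.09). The list's median was -0.03.

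**Figure D4:**
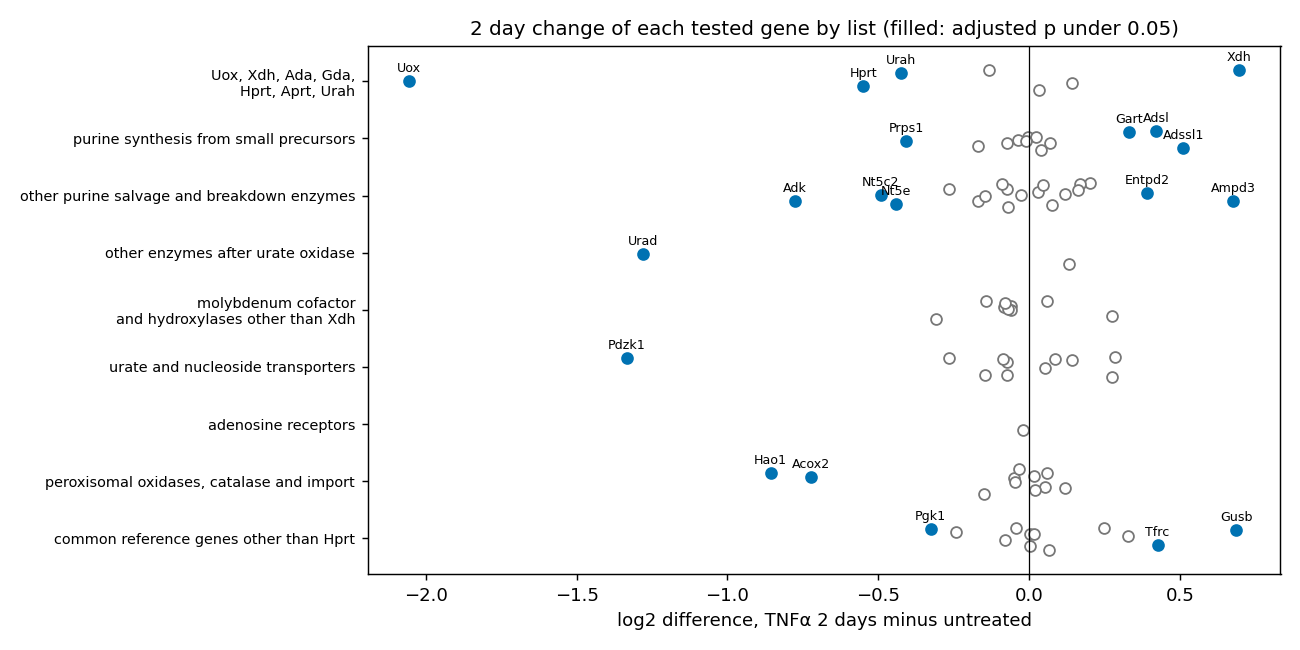
Log2 difference at 2 days from untreated cells (horizontal axis) for each tested gene of the 7 and of 8 other lists, with filled and named points for adjusted p under 0.05. Uox at -2.05, Pdzk1 at -1.33 and Urad at -1.28 lie farthest to the left, and Xdh at 0.70, Gusb at 0.69 and Ampd3 at 0.68 farthest to the right.

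Genes with the profile most like that of the 3 most changed genes were found by the root mean square difference of log2 values over the 6 arrays, after centring on the untreated mean, among 12919 genes. For Uox these were Cyp2a5 (0.09), a coumarin-hydroxylating cytochrome P450, Hpgd (0.10), a prostaglandin dehydrogenase, and Sult1d1 (0.12), a sulfotransferase. Their 2 day differences were -2.00, -1.92 and -1.96, but 4 other Cyp2a5 probes gave -0.53 to -0.13, with 1 of them called, and another Sult1d1 probe -0.07. For Xdh they were Clic1 (0.04), Ssbp3 (0.05) and Prmt2 (0.05), with 2 day differences of 0.73, 0.69 and 0.67. Other probes of Ssbp3 (0.14 and 0.31) were not called, and that of Prmt2 was (0.74). For Hprt they were the neuropeptide gene Nts (0.04), the forkhead factor Foxa3 (0.04) and Mccc2 (0.05), a subunit of a leucine-degrading enzyme, with differences of -0.58, -0.54 and -0.49, and another Nts probe gave 0.16 without a call.

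Marker genes of several cell types were called as well. For comparison, 6.46% of all 13438 genes were called higher and 5.68% lower at 2 days, and 1.65% and 0.945% at 2 hours. The summed intensity of 8 hepatocyte markers, 7 of them tested, was 95430 to 100085 in untreated cells, 96844 to 97066 at 2 hours and 53806 to 57160 at 2 days, and 5 were called lower at 2 days. These were Cps1 (-3.10), a urea cycle enzyme, the cytochrome P450 Cyp3a11 (-2.97), the asialoglycoprotein receptor subunit Asgr1 (-1.60), Apoa1 (-0.82) and the nuclear receptor Hnf4a (-0.82). The log2 differences of Cps1 and Cyp3a11 were larger in size than that of Uox (-2.05). Cps1 was at 1649 and 1496 at 2 days, against 15130 and 12046 in untreated cells. Against 2 hours the same 5 were called lower, and Ttr too (-0.33), beside 6.39% of all genes. The level of the hepatocyte sum is carried mainly by Apoa1 and Ttr, whereas Apoa1 and Cps1 fell most in intensity by 2 days. Apoa1 and Ttr were bright, whereas the Alb probe lay between 144.6 and 174.5 and the Tat probe did not pass the filter. For 9 macrophage markers, 6 tested, the sums were 1412 to 1437, 1351 to 1376 and 1471 to 1548 in the same order, with C1qa called higher at 2 days (0.36) and Ptprc, Clec4f and Cd5l not above the filter. The 4 bile duct markers, 3 tested, summed to 1317 to 1328, 1930 to 1949 and 3297 to 3554, with Sox9 called higher at 2 hours (0.79) and at 2 days (1.78). Sox9 carried most of that rise, at 852.3 and 842.1 in untreated cells and 2796 and 3027 at 2 days. Krt7 and Krt19 were tested and not called, and Epcam was not above the filter. The 8 stellate cell markers, 5 tested, summed to 2551 to 3049, 2588 to 2805 and 3184 to 3939, with Reln called higher at 2 hours (0.43) and lower at 2 days (-0.82), and Acta2 called higher at 2 days (0.67). The higher sum at 2 days was carried by Acta2, at 1343 and 1812 in untreated cells and 2107 and 2906 at 2 days. Col1a1, Col1a2 and Des were tested and not called. The 6 endothelial markers summed to 1183 to 1267, 1192 to 1340 and 1161 to 1166, with Stab2 called lower (-0.37), and 4 lymphocyte and neutrophil markers to 509.4 to 523.4, 498.2 to 524.6 and 486.7 to 506.8. Of those 4 only Cd3e was tested, and it was not called. All 4 lay near or below the array median. The macrophage markers, and the endothelial markers other than Stab2, were also dim, at most 262.8 on any array. A change could be hidden in sums of such dim markers. The part of these markers in the changes of Uox, Urah, Hprt and Xdh was not tested, and in bulk RNA fewer cells of a type and less RNA per cell cannot be told apart.

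**Figure D5:**
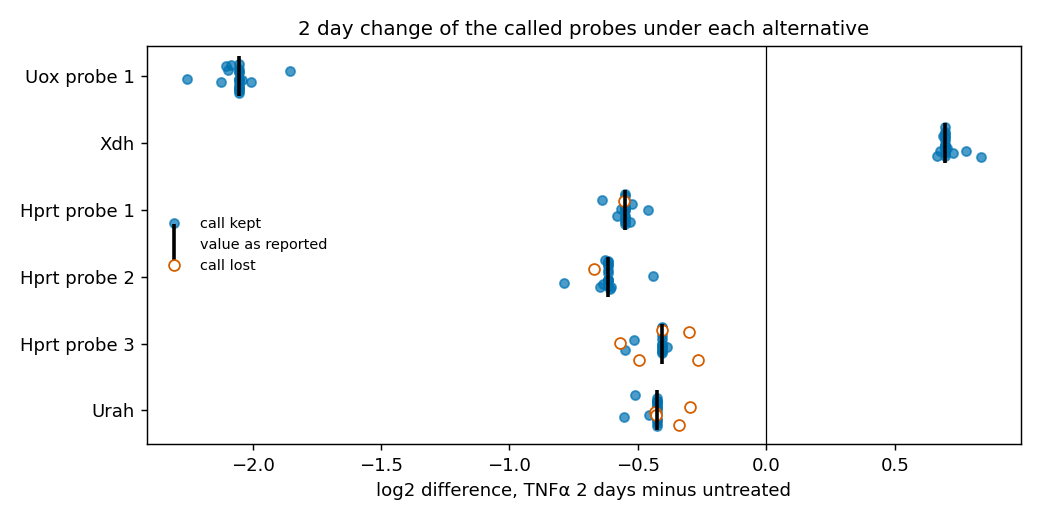
Log2 difference at 2 days from untreated cells (horizontal axis) of the 6 called probes under each alternative setting, with a bar for the value as reported and open points where the call was lost. Uox and Xdh have no open point, Hprt probes 1 and 2 have 1 each, Hprt probe 3 has 5 and Urah has 4.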

How the data were processed

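Total RNA was extracted, and biotinylated cRNA was hybridised to the arrays, per the labels' protocols. The deposited intensity table holds 1 linear value per probe and array. Its 6 columns shared 1 distribution, differing by at most 0.333% at any rank, as if quantile normalized before deposit. No value was below 96.54, so background or an added constant remains in the values, and which of them is not labelled. Scanner software, normalization and genome build are not given in the sources used here. Gene names came from the platform's annotation (34885 with 1 symbol, 18 with several, 10378 not listed), with symbols updated through RefSeq.

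Here intensities were converted to log2 without scaling, and a mean per group was fitted to every tested probe over the 6 arrays (limma 3.58.1, R 4.3.3; residual degrees of freedom 3, prior 19.14), so the spread is mostly that shared over all probes. The fit was checked on simulated data. The 7 genes, the lists and the settings were chosen with earlier results of these data known. All probes of the 7 genes are described, and each list or marker gene called against untreated cells is named. The number of arrays limits the precision. Of 21 alternatives, the closing section gives the effect.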

Additional observations from a re-analysis of the deposited data

Results flagged for a closer look

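The change at 2 days differed from the change at 2 hours, by the limma test of 2 days minus 2 hours (adjusted p under 0.05), for 6 probes of 4 genes. The difference on the log2 scale was -1.90 for Uox, 0.79 for Xdh, -0.52, -0.60 and -0.49 for the 3 Hprt probes and -0.38 for Urah. In each case both 2 day arrays lay on the same side of both 2 hour arrays, as they did for 49.5% of all tested probes. With 2 arrays a group, no array was tested as an outlier.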

How the results depend on the processing

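Calls of Uox and Xdh were kept under all 21 alternatives, and no called change of the 7 genes or of the other lists reversed. At 2 hours 0 of the 7 genes' probes were called under any alternative. After normexp with an offset of 16, which removes background, 2 of the 9 probes were called at 2 days against untreated cells and 2 against 2 hours, those of Uox and Xdh, where 6 and 6 were called as reported. With an offset of 50, 4 and 5 were called. With the offset of 16, Uox differed by -2.12 from untreated cells at 2 days and Xdh by 0.84. The Hprt probes differed by -0.55, -0.67 and -0.57 and Urah by -0.43, without a call. These Hprt and Urah differences were no smaller in size than those reported, but their SEs were larger, at 0.15 to 0.20. Leaving out 1 array gave 4 to 6 called probes in either comparison. With 1 probe a gene or the mean of a gene's probes, 4 of 7 genes were called in either comparison. Over all probes, normexp with an offset of 16 left 112 called at 2 hours (267 with 50), 725 at 2 days and 965 between exposures, against 496, 2529 and 3043. The mean of a gene's probes gave 250, 1345 and 1645 of 13438 genes, and an adjusted p under 0.01 gave 300, 1559 and 1910. Leaving out 1 of the arrays compared gave fewer calls over all probes in each comparison. Among the 77 other genes, normexp with an offset of 16 left 0, 3 and 3 called, against 3, 16 and 16, and with an offset of 50 left 0, 10 and 11. Of these, Urad, Pdzk1 and Acox2 kept their calls at 2 days under all 21 alternatives. Same-numbered arrays did not deviate together (correlations of -0.12, -0.07 and 0.02 across probes). Each group gives a single difference per probe, so this cannot show whether the replicate numbers pair the samples. A fit with the replicate block called 0, 6 and 6 of the 9 probes and 438, 2298 and 2843 of all probes. Signals near the array median limit Ada, Gda and the second Uox probe, and likewise Allc, Aox1 and Adora3.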

Other observations

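Hprt is widely used to normalise expression measurements, so other common reference genes were read in the same fit. Of 12 tested, Gusb (0.69, adjusted p = 4.4e-05 by limma) and Tfrc (0.43, adjusted p = 0.0099) were higher and Pgk1 (-0.33, adjusted p = 0.0302) was lower at 2 days. Over all genes 6.46% were called higher and 5.68% lower at 2 days. At 2 hours limma called 0 of the 12, and 0 had an unadjusted p below 0.05. Only 2.60% of all genes were called at 2 hours, so 0 of 12 does not set these genes apart. Gusb was at 3313 and 2821 at 2 days, against 1845 and 1954 in untreated cells, and its other probes gave 0.22, 0.36 and 0.69. The call of Tfrc was lost without untreated replicate 2 or replicate 2 of the 2 day group, and that of Pgk1 without any 1 of the 4 arrays compared. Another Tfrc probe gave 0.28 and another Pgk1 probe 0.13, both without a call. B2m was higher at 2 days than at 2 hours (0.34), a call lost without any 1 of the 4 arrays compared. Ppia differed by 0.0040 at 2 days, Gapdh by -0.08 and Actb by 0.25, none of them called.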
